A study of Mus musculus with 18 samples.

Results

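The 38 genes described here are interferon-stimulated genes, genes whose transcription rises when interferon binds its receptors. They were taken as a list of names and matched on the gene symbols of the authors' gene table, where all 38 were found among 55536 genes, and all 38 passed the filter on low counts that left 17092 genes for testing. The RNA came from mammary organoids, small tissue pieces of mouse mammary gland grown in matrigel, a basement membrane gel. The glands were taken from C57BL/6 mice aged 6 to 7 weeks, and the organoids were kept for 5 days with their growth factors in a DMEM/F12 base with insulin, transferrin and selenium. KO organoids came from RasGRP1-/- mice, which lack a nucleotide exchange factor that activates Ras, and WT organoids from wild-type mice. ERW medium held EGF at 2.5 nM, the surrogate Wnt ligand NGS-Wnt at 0.1 nM and Rspo2, an amplifier of Wnt signalling, at 8.3 nM. EGF medium held EGF alone at 2.5 nM, and RW medium held NGS-Wnt and Rspo2 without EGF, at the doses of ERW medium. The 6 groups, KO and WT in ERW, EGF and RW medium, had 3 libraries each, and each of 3 batches named by the labels held 1 library of every group. The labels name no tissue-specific deletion, and they do not say how many mice gave a library or whether the 3 media of a genotype and batch shared mice.

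Interferons of type I and type III are made when cells sense foreign or misplaced nucleic acid. Their receptors activate the kinases JAK1 and TYK2 and, through them, the factor ISGF3, which holds STAT2 and IRF9 and binds the interferon-stimulated response element (ISRE). Interferon gamma acts mainly through the gamma-activated sequence (GAS). The genes switched on encode nucleic acid sensors, transcription factors that amplify the signal, enzymes that block viral replication, and inhibitors that end the response. Many of them are also transcribed at a low level in resting epithelium.

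Promoters of 6 members are shown because they hold different combinations of both elements. Isg15, Oas1a, Gbp3 and Bst2 rose in ERW over RW medium, and Irf1 and Samd9l were not called there. Sequences are from RefSeq on GRCm38.p6, printed from 200 bases before the transcription start to the base before it, 5′ to 3′ on the strand of the gene. Capitals mark every match to the ISRE core, GAAA and GAAA with any 2 bases between them, or to the GAS core TTCNNNGAA, searched on both strands, where overlapping matches run together.
Isg15 (chr4:156200819-156201018, minus strand): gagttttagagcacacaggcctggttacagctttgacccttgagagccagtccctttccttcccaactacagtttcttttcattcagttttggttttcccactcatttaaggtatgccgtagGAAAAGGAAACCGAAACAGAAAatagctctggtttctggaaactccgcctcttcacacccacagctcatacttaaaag
Oas1a (chr5:120907526-120907725, minus strand): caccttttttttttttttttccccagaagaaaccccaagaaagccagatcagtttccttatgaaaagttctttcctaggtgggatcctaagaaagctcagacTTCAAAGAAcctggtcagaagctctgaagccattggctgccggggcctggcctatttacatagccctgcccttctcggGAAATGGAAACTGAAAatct
Gbp3 (chr3:142559844-142560043, plus strand): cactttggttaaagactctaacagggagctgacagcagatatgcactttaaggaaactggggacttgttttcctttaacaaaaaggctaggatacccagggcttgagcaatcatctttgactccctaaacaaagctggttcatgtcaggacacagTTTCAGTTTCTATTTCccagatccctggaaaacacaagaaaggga
Bst2 (chr8:71537473-71537672, minus strand): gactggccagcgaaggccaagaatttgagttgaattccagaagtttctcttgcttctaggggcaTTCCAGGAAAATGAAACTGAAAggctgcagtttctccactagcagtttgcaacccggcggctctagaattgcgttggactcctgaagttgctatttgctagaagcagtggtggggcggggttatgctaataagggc
Irf1 (chr11:53769814-53770013, plus strand): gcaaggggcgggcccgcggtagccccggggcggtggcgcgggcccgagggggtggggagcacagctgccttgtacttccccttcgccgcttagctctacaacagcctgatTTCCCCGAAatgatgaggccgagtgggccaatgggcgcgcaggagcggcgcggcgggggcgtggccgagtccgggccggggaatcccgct
Samd9l (chr6:3399572-3399771, minus strand): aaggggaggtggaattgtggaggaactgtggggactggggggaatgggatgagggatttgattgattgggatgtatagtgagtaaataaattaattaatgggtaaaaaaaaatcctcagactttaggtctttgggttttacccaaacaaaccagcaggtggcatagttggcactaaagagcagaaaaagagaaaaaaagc
The capitals are ISRE matches in Isg15 and Gbp3, where Gbp3 carries them on the opposite strand, and a GAS match in Irf1. Oas1a and Bst2 hold both elements, which overlap in Bst2 and lie apart in Oas1a. Samd9l holds neither in these bases. Windows of 300 bases, from 250 before to 50 after the start, were at hand for 29 of the 38 genes. An ISRE core lay in a window of 16 of the 29 genes, against 3.99% of 27025 genes, and a GAS core in 6 of the 29, against 9.55%. The 6 promoters shown do not stand for all 29 genes. Ifit1, Ddx60 and Gbp2, among others, hold an ISRE core and were not called in ERW over RW medium. Irf7, Irf9 and Ifi44, among others, hold none in their windows and rose there. A match is a description of letters and not a binding site.

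The libraries held between 24290097 and 31269899 counts. Levels are given as CPM, counts scaled in edgeR to the effective library size, so levels are compared between libraries and not between genes unless divided by length. Rasgrp1, the deleted gene, had 0 to 9 counts in the 9 KO libraries, 25 in all, and 6 to 28 counts in the 9 WT libraries, 145 in all. In ERW, EGF and RW medium it had 0, 0 and 0 counts in the KO libraries of batch 1, against 7, 15 and 28 in the WT libraries. In batch 2 it had 0, 6 and 0 counts in KO, against 6, 15 and 10 in WT, and in batch 3 it had 6, 4 and 9 counts in KO, against 18, 21 and 25 in WT. Whether these counts fall outside the deleted part is not given in the sources used here. All 6 markers of epithelium were high in every library, with Epcam between 705 and 1160 CPM. Lymphocyte markers summed to at most 5.66 CPM. Genes of fibroblasts, endothelium and adipocytes were also present, so the organoids were not epithelium alone. A matched pair is a KO and a WT library of 1 medium and batch, of which there are 9, or an ERW and an RW library of 1 genotype and batch, of which there are 6. Differences are log2 ± SE, and calls are made where the adjusted p over all genes tested is under 0.05. Since whole cultures were sequenced, fewer cells of a type and less RNA per cell cannot be told apart.

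Interferon-stimulated genes were higher in ERW medium than in RW medium. Of the 38 genes, 28 rose and 0 fell in ERW over RW medium, averaged over both genotypes (edgeR quasi-likelihood test with batch in the model, adjusted p under 0.05), where 22.9% of all genes tested were called and 11% rose. The median log2 difference of the 38 genes was 0.89, against 0.00 over all genes tested, and 37 were positive. Against EGF medium, 20 of the 38 rose and 0 fell in ERW medium, where 27.9% of all genes were called and 13.4% rose, with a median of 0.71. EGF medium stood closer to RW medium: 4 genes rose and 0 fell in EGF over RW medium, where 25.5% of all genes were called and 12.9% rose, with a median of 0.26. The 3 comparisons share libraries, so their values stand side by side and are not independent. Within each genotype, the median ERW minus RW was 0.97 in KO and 0.92 in WT, and ERW minus EGF was 0.70 in KO and 0.63 in WT. By batch, 1 library against 1, the median ERW minus RW in WT was 0.24, 1.11 and 1.74 in batches 1, 2 and 3. In WT of batch 1, 28 of the 38 were positive. In KO the ERW minus RW medians were 0.99, 0.83 and 0.86. The ERW minus EGF medians were 0.11, 0.85 and 1.06 in WT and 0.56, 1.03 and 0.50 in KO. No gene passed the genotype-by-medium test of edgeR, neither of the 38 nor of all 17092 (0%), with 0 of the 38 under an unadjusted p of 0.05 and 0 of the 38 called by DESeq2. Without batch in the model, 12 of the 38 rose in ERW over RW, 1 in ERW over EGF and 0 in EGF over RW. Leaving out batch 2 left 8, 2 and 0. The 20 calls of ERW over EGF fell to 9 without the KO ERW or the WT EGF library of batch 3, to 10 without the WT ERW library of batch 2, to 11 and 12 without the KO EGF library of batch 1 or of batch 2, and to 13 without the WT ERW library of batch 3. The 4 calls of EGF over RW became 10 without the WT RW library of batch 1, 2 without the KO RW library of batch 1, the WT EGF library of batch 2 or the WT RW library of batch 3, and 0 without the KO EGF library of batch 3. No library moved the 28 calls of ERW over RW outside 21 to 31.

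**Figure D1:**
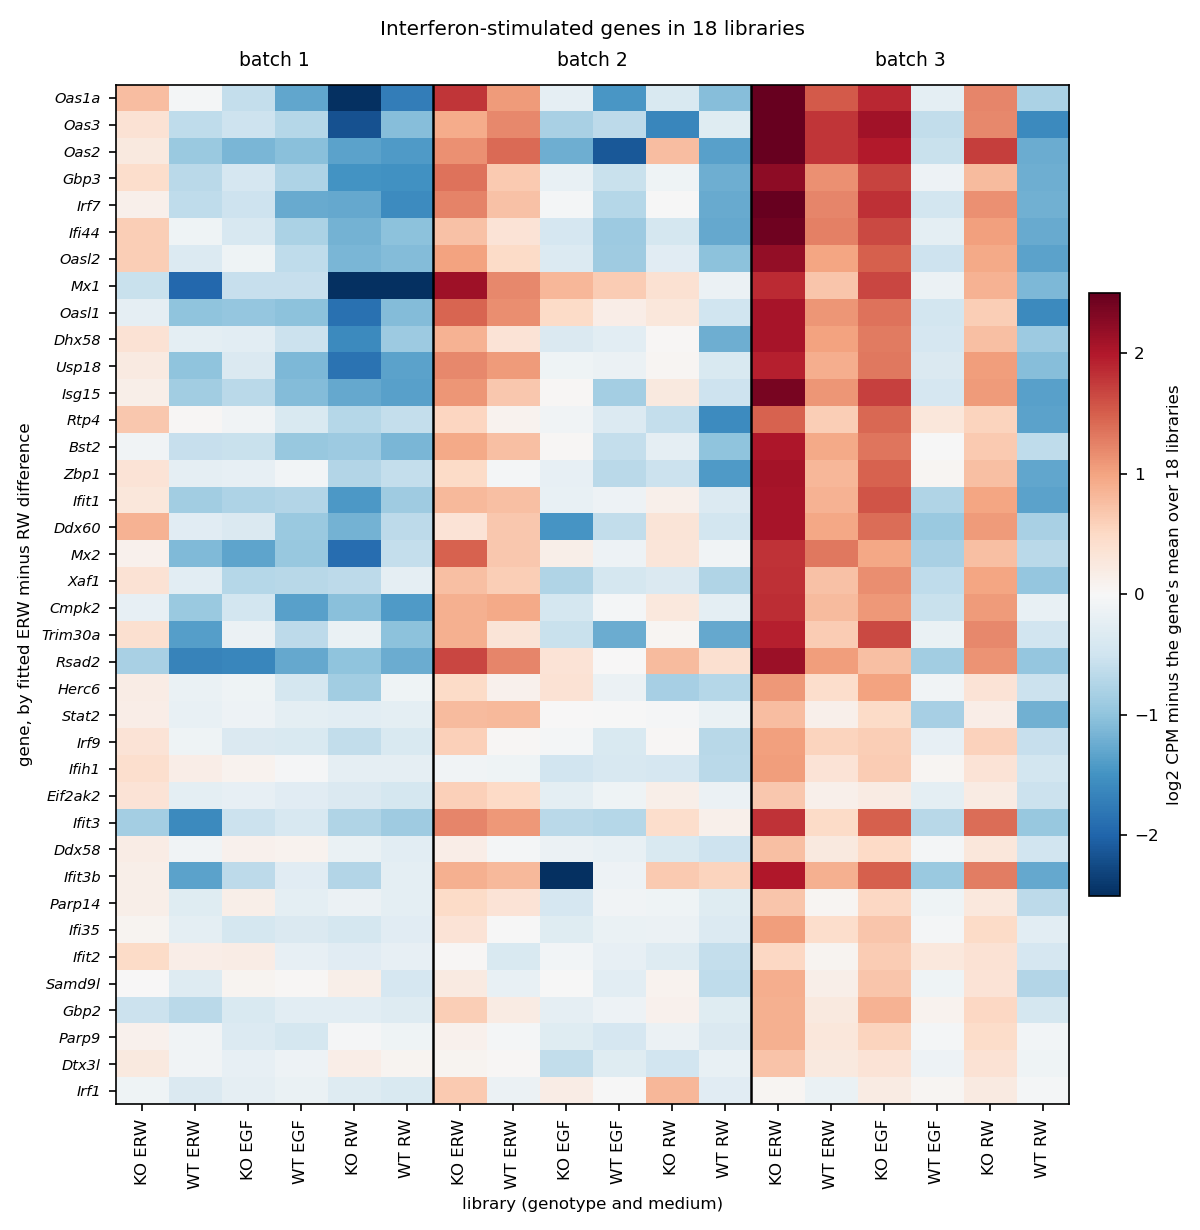
Level of each of the 38 genes (rows) in each of the 18 libraries (columns, grouped by batch and labelled by genotype and medium), as log2 CPM minus the mean of that gene over all libraries. The KO ERW library of batch 3 is highest for 34 of the 38 genes.

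**Figure D2:**
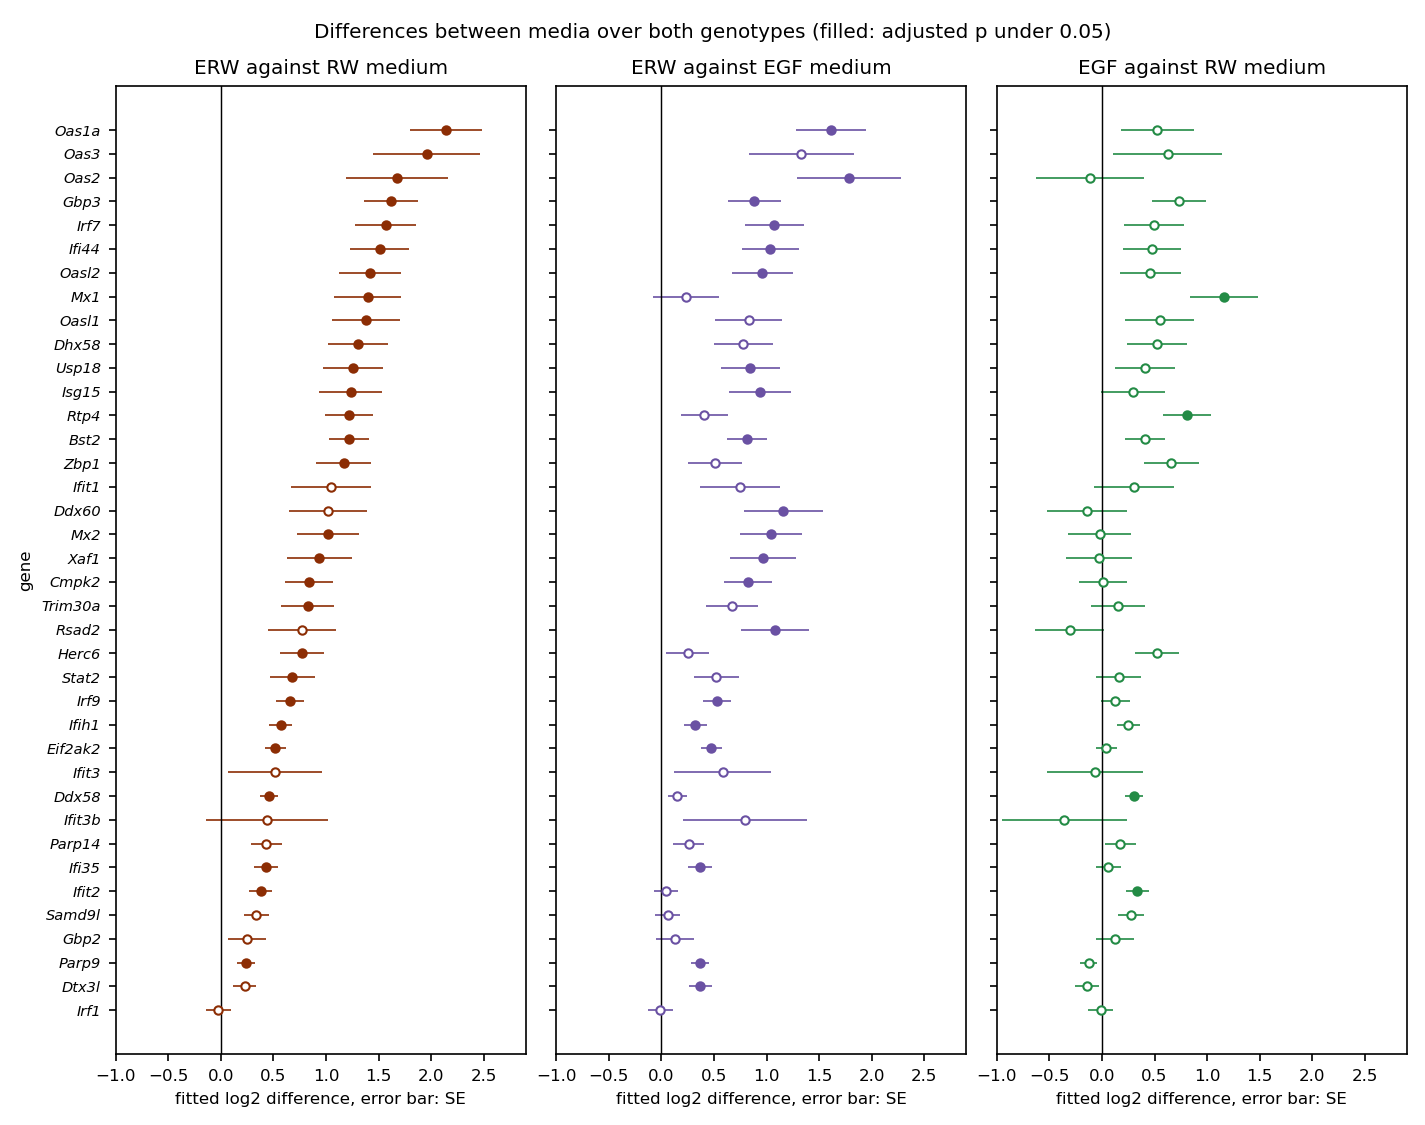
Fitted log2 differences between media for each gene, averaged over genotypes, with bars of 1 standard error. In ERW over RW medium 37 of 38 values are positive, up to 2.14 for Oas1a.

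The interferon ligand genes that were looked up were almost absent from the counts, and ligand genes outside that list were not examined. Of 12 ligand genes, 7 had no count in any library, none passed the filter, and all 12 together gave 54 counts over 18 libraries. Ifnz held 26 of them, Ifnl2 and Ifnl3 12 each, Ifnb1 3 and Ifne 1. The 17 counts in ERW medium, 25 in EGF medium and 12 in RW medium are too few to order the media. At this depth a difference in the RNA of these 12 genes was not detectable.

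Receptor genes, unlike the ligands, were counted, and they differed between media. All 6 receptor genes rose in EGF over RW medium and 3 rose in ERW over RW medium, while 5 fell in ERW against EGF medium. Over all genes tested, 12.9% rose in EGF over RW and 11% in ERW over RW medium. In ERW against EGF medium 14.5% of all genes fell. Ifnlr1, the specific subunit of the type III interferon receptor, rose by 1.04 ± 0.08 in EGF over RW medium (edgeR adjusted p = 5.01e-08) and fell in ERW against EGF medium, where its log2 difference was -0.50 ± 0.08 (edgeR adjusted p = 0.000217). Ifnar2, a subunit of the type I receptor, rose by 0.67 ± 0.08 in EGF over RW medium (edgeR adjusted p = 4.65e-06). Among 14 signal transducers, 5 rose and 0 fell in ERW over RW medium, where 11% of all genes rose and 11.9% fell. Tlr3, a sensor of double-stranded RNA in endosomes, rose by 0.91 ± 0.10 (edgeR adjusted p = 8.2e-06). Trim25, a ligase that acts on RIG-I, rose by 0.66 ± 0.07 (edgeR adjusted p = 1.33e-06). Myd88, Tmem173 and Tyk2 also rose there, by 0.36 ± 0.05, 0.36 ± 0.07 and 0.31 ± 0.08. Of 9 inhibitors, Ptpn6 rose and Cyld fell in ERW against RW medium. These 2 of 9 are near the 22.9% called over all genes.

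Among the sensors of nucleic acid, Ifih1, Ddx58, Dhx58 and Zbp1 rose in ERW over RW medium and Ddx60 was not called. Ifih1 encodes MDA5, a sensor of long double-stranded RNA (chr2:62595798-62646255, minus strand). Ifih1 in ERW medium had 67.4, 46.8 and 104 CPM in the KO libraries of batches 1, 2 and 3, against 56.4, 46.4 and 63.6 CPM in the WT libraries. In EGF medium Ifih1 had 53.2, 35.97 and 78.2 CPM in KO and 49.1, 38.1 and 51.5 CPM in WT. In RW medium Ifih1 had 43.01, 37.6 and 63.5 CPM in KO and 42.6, 31.6 and 36.4 CPM in WT. For Ifih1, the KO ERW library of batch 3 was highest and the WT RW library of batch 2 lowest, KO stood above WT in 8 of 9 matched pairs and ERW above RW in 6 of 6, and the KO and WT values overlapped in each medium. Ifih1 rose in ERW medium, by 0.57 ± 0.11 over RW (edgeR adjusted p = 0.00107) and by 0.32 ± 0.11 over EGF (edgeR adjusted p = 0.0371). Ddx58 encodes RIG-I, which senses short RNA with uncapped ends (chr4:40203773-40239828, minus strand). Ddx58 in ERW medium had 126, 125 and 188 CPM in the KO libraries of batches 1, 2 and 3, against 105, 107 and 132 CPM in the WT libraries. In EGF medium Ddx58 had 119.5, 101 and 157 CPM in KO and 117, 97.1 and 108 CPM in WT. In RW medium Ddx58 had 98.9, 84.8 and 135 CPM in KO and 91.9, 77.1 and 80.2 CPM in WT. For Ddx58, the KO ERW library of batch 3 was highest and the WT RW library of batch 2 lowest, KO stood above WT in 9 of 9 matched pairs and ERW above RW in 6 of 6, and the KO and WT values overlapped in each medium. Ddx58 rose by 0.46 ± 0.09 in ERW over RW medium (edgeR adjusted p = 0.00117), and ERW minus EGF was 0.15 ± 0.09 (edgeR adjusted p = 0.231). It was also 1 of the 4 genes that rose in EGF over RW medium, by 0.31 ± 0.09 (edgeR adjusted p = 0.0169). Ddx60 is a helicase gene that interferon and viruses raise (chr8:61928087-62038244, plus strand). Ddx60 in ERW medium had 10.99, 7.63 and 25.4 CPM in the KO libraries of batches 1, 2 and 3, against 4.95, 9.64 and 11.9 CPM in the WT libraries. In EGF medium Ddx60 had 4.66, 2.103 and 16.01 CPM in KO and 3.11, 3.89 and 3.11 CPM in WT. In RW medium Ddx60 had 2.61, 7.54 and 12.7 CPM in KO and 3.77, 4.35 and 3.42 CPM in WT. For Ddx60, the KO ERW library of batch 3 was highest and the KO EGF library of batch 2 lowest, KO stood above WT in 6 of 9 matched pairs and ERW above RW in 6 of 6, and the KO and WT values overlapped in each medium. Ddx60 rose by 1.16 ± 0.37 in ERW over EGF medium (edgeR adjusted p = 0.0342), and ERW minus RW was 1.02 ± 0.37 (edgeR adjusted p = 0.0670). Dhx58, which encodes the RIG-I relative LGP2 and overlaps the antisense gene Dhx58os, rose by 1.30 ± 0.28 in ERW over RW medium, and this value may include counts of Dhx58os, since the strand setting of the counting is not given. Zbp1, a sensor of left-handed nucleic acid, rose by 1.17 ± 0.26 there.

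Of the transcription factors, Irf7, Irf9 and Stat2 rose in ERW over RW medium and Irf1 was not called. Irf7, which drives the type I interferon genes, was among the 5 largest rises (chr7:141262706-141266481, minus strand). Irf7 in ERW medium had 72.6, 157 and 424 CPM in the KO libraries of batches 1, 2 and 3, against 42.6, 110.2 and 156 CPM in the WT libraries. In EGF medium Irf7 had 46.5, 63.9 and 236 CPM in KO and 27.5, 40.3 and 48.1 CPM in WT. In RW medium Irf7 had 27.3, 65.9 and 147 CPM in KO and 22.2, 27.5 and 28.8 CPM in WT. For Irf7, the KO ERW library of batch 3 was highest and the WT RW library of batch 1 lowest, KO stood above WT in 9 of 9 matched pairs and ERW above RW in 6 of 6, and the KO and WT values overlapped in each medium. Irf7 rose in ERW medium, by 1.57 ± 0.29 over RW (edgeR adjusted p = 0.00220) and by 1.08 ± 0.28 over EGF (edgeR adjusted p = 0.0155). Irf9 encodes the DNA-binding subunit of ISGF3 (chr14:55603571-55610030, plus strand). Irf9 in ERW medium had 96.4, 114 and 155 CPM in the KO libraries of batches 1, 2 and 3, against 69.9, 77.4 and 111 CPM in the WT libraries. In EGF medium Irf9 had 58.9, 72.9 and 116 CPM in KO and 58.3, 58.1 and 65.2 CPM in WT. In RW medium Irf9 had 49.2, 77.4 and 113 CPM in KO and 57.8, 46.8 and 50.9 CPM in WT. For Irf9, the KO ERW library of batch 3 was highest and the WT RW library of batch 2 lowest, KO stood above WT in 8 of 9 matched pairs and ERW above RW in 6 of 6, and the KO and WT values overlapped in each medium. Irf9 rose in ERW medium, by 0.66 ± 0.14 over RW (edgeR adjusted p = 0.00294) and by 0.53 ± 0.13 over EGF (edgeR adjusted p = 0.0103). Stat2 encodes the subunit of ISGF3 that carries its activation domain (chr10:128270559-128292849, plus strand). Stat2 in ERW medium had 62.7, 96.6 and 94.7 CPM in the KO libraries of batches 1, 2 and 3, against 49.4, 97.4 and 60.7 CPM in the WT libraries. In EGF medium Stat2 had 50.95, 56.01 and 77.2 CPM in KO and 47.03, 55.5 and 31.5 CPM in WT. In RW medium Stat2 had 46.2, 54.5 and 62.9 CPM in KO and 47.3, 49.5 and 24.3 CPM in WT. For Stat2, the WT ERW library of batch 2 was highest and the WT RW library of batch 3 lowest, KO stood above WT in 7 of 9 matched pairs and ERW above RW in 6 of 6, and the KO and WT values overlapped in each medium. Stat2 rose by 0.68 ± 0.21 in ERW over RW medium (edgeR adjusted p = 0.0376), and ERW minus EGF was 0.52 ± 0.21 (edgeR adjusted p = 0.0907). Irf1 encodes a factor best known for its rise after interferon gamma through a GAS element (chr11:53770014-53778374, plus strand). Irf1 in ERW medium had 69.7, 119 and 77.5 CPM in the KO libraries of batches 1, 2 and 3, against 58.2, 68.1 and 67.2 CPM in the WT libraries. In EGF medium Irf1 had 63.97, 85.2 and 86.5 CPM in KO and 66.5, 74.9 and 77.5 CPM in WT. In RW medium Irf1 had 60.2, 134 and 87.1 CPM in KO and 57.8, 61.2 and 72.1 CPM in WT. For Irf1, the KO RW library of batch 2 was highest and the WT RW library of batch 1 lowest, KO stood above WT in 8 of 9 matched pairs and ERW above RW in 3 of 6, and all KO values lay above all WT values in ERW medium and the groups overlapped in the other media. Irf1 passed neither test of ERW medium, with -0.02 ± 0.12 for ERW minus RW (edgeR adjusted p = 0.921) and -0.01 ± 0.12 for ERW minus EGF (edgeR adjusted p = 0.957). It had the lowest ERW minus RW and ERW minus EGF differences of the 38 genes.

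The OAS family, which makes the oligoadenylate that activates RNase L in response to double-stranded RNA, held the 3 largest differences between ERW and RW medium. Oas1a had the largest (chr5:120896256-120907521, minus strand). Oas1a in ERW medium had 9.53, 19.4 and 38.4 CPM in the KO libraries of batches 1, 2 and 3, against 5.36, 11.7 and 16.2 CPM in the WT libraries. In EGF medium Oas1a had 3.67, 4.76 and 20.7 CPM in KO and 2.24, 1.999 and 4.68 CPM in WT. In RW medium Oas1a had 0.557, 4.24 and 13.2 CPM in KO and 1.64, 2.62 and 3.19 CPM in WT. For Oas1a, the KO ERW library of batch 3 was highest and the KO RW library of batch 1 lowest, KO stood above WT in 8 of 9 matched pairs and ERW above RW in 6 of 6, and the KO and WT values overlapped in each medium. Oas1a rose in ERW medium, by 2.14 ± 0.34 over RW (edgeR adjusted p = 0.000404) and by 1.61 ± 0.33 over EGF (edgeR adjusted p = 0.00271). Of the 50-base stretches of Oas1a, 57.6% also occur in Oas1g or Oas1b, so its counts are uncertain between these copies. Oas2 is a further synthetase gene of the same cluster (chr5:120730333-120749853, minus strand). Oas2 in ERW medium had 4.403, 8.26 and 36.9 CPM in the KO libraries of batches 1, 2 and 3, against 1.92, 10. and 13.03 CPM in the WT libraries. In EGF medium Oas2 had 1.65, 1.54 and 14.98 CPM in KO and 1.77, 0.807 and 2.49 CPM in WT. In RW medium Oas2 had 1.43, 6.42 and 12.5 CPM in KO and 1.34, 1.42 and 1.53 CPM in WT. For Oas2, the KO ERW library of batch 3 was highest and the WT EGF library of batch 2 lowest, KO stood above WT in 7 of 9 matched pairs and ERW above RW in 6 of 6, and the KO and WT values overlapped in each medium. Oas2 rose in ERW medium, by 1.68 ± 0.49 over RW (edgeR adjusted p = 0.0256) and by 1.79 ± 0.49 over EGF (edgeR adjusted p = 0.0170). Oas3 had the lowest level per length of the 38 genes, with a median of 0.0958 CPM per kb of exon (chr5:120753098-120777661, minus strand). Oas3 in ERW medium had 1.35, 2.03 and 9.57 CPM in the KO libraries of batches 1, 2 and 3, against 0.639, 2.47 and 3.75 CPM in the WT libraries. In EGF medium Oas3 had 0.700, 0.558 and 4.67 CPM in KO and 0.602, 0.631 and 0.655 CPM in WT. In RW medium Oas3 had 0.174, 0.288 and 2.48 CPM in KO and 0.459, 0.829 and 0.299 CPM in WT. For Oas3, the KO ERW library of batch 3 was highest and the KO RW library of batch 1 lowest, KO stood above WT in 5 of 9 matched pairs and ERW above RW in 6 of 6, and the KO and WT values overlapped in each medium. Oas3 rose by 1.96 ± 0.51 in ERW over RW medium (edgeR adjusted p = 0.00927), and ERW minus EGF was 1.33 ± 0.49 (edgeR adjusted p = 0.0555). Oasl1 and Oasl2, family members that make no oligoadenylate or little of it, rose by 1.38 ± 0.33 and 1.42 ± 0.29 in ERW over RW medium.

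Isg15, Usp18 and Herc6, which act in 1 pathway, all rose in ERW over RW medium. Isg15 encodes a ubiquitin-like protein that is joined to other proteins after interferon signalling (chr4:156199424-156200818, minus strand). Isg15 in ERW medium had 15.03, 29.4 and 70.6 CPM in the KO libraries of batches 1, 2 and 3, against 7.41, 21.7 and 29.3 CPM in the WT libraries. In EGF medium Isg15 had 8.57, 14.03 and 45.1 CPM in KO and 6.38, 7.54 and 10.2 CPM in WT. In RW medium Isg15 had 5.57, 16.1 and 28.5 CPM in KO and 5.28, 9.46 and 5.31 CPM in WT. For Isg15, the KO ERW library of batch 3 was highest and the WT RW library of batch 1 lowest, KO stood above WT in 9 of 9 matched pairs and ERW above RW in 6 of 6, and the KO and WT values overlapped in each medium. Isg15 rose in ERW medium, by 1.23 ± 0.30 over RW (edgeR adjusted p = 0.00984) and by 0.94 ± 0.30 over EGF (edgeR adjusted p = 0.0331). Usp18 encodes the protease that removes Isg15 and restrains the type I receptor (chr6:121245906-121270917, plus strand). Usp18 in ERW medium had 8.62, 17.2 and 28.5 CPM in the KO libraries of batches 1, 2 and 3, against 3.67, 15.5 and 13.9 CPM in the WT libraries. In EGF medium Usp18 had 5.77, 6.82 and 18.6 CPM in KO and 3.34, 6.7 and 5.73 CPM in WT. In RW medium Usp18 had 2.02, 7.66 and 15.3 CPM in KO and 2.88, 5.66 and 3.48 CPM in WT. For Usp18, the KO ERW library of batch 3 was highest and the KO RW library of batch 1 lowest, KO stood above WT in 8 of 9 matched pairs and ERW above RW in 6 of 6, and the KO and WT values overlapped in each medium. Usp18 rose in ERW medium, by 1.26 ± 0.28 over RW (edgeR adjusted p = 0.00476) and by 0.85 ± 0.28 over EGF (edgeR adjusted p = 0.0369). Herc6, the main ligase for Isg15 in the mouse, rose by 0.77 ± 0.21 in ERW over RW medium (edgeR adjusted p = 0.0120).

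Of the 4 IFIT genes, whose family binds viral RNA, only Ifit2 was called in a comparison of media. Ifit1 binds caps that lack methylation (chr19:34640871-34650009, plus strand). Ifit1 in ERW medium had 25.2, 36.4 and 86.7 CPM in the KO libraries of batches 1, 2 and 3, against 11.4, 34.9 and 37.8 CPM in the WT libraries. In EGF medium Ifit1 had 12.2, 18.1 and 62.1 CPM in KO and 12.5, 18.9 and 12.2 CPM in WT. In RW medium Ifit1 had 7.59, 22.6 and 41.1 CPM in KO and 11.2, 16.4 and 8.16 CPM in WT. For Ifit1, the KO ERW library of batch 3 was highest and the KO RW library of batch 1 lowest, KO stood above WT in 6 of 9 matched pairs and ERW above RW in 6 of 6, and the KO and WT values overlapped in each medium. Ifit1 passed neither test of ERW medium, with 1.05 ± 0.38 for ERW minus RW (edgeR adjusted p = 0.0726) and 0.75 ± 0.38 for ERW minus EGF (edgeR adjusted p = 0.175). Ifit3 stabilises Ifit1 in human cells (chr19:34583531-34588731, plus strand). Ifit3 in ERW medium had 3.603, 15.5 and 23.3 CPM in the KO libraries of batches 1, 2 and 3, against 2.14, 14.01 and 9.17 CPM in the WT libraries. In EGF medium Ifit3 had 4.53, 4.08 and 18.7 CPM in KO and 4.95, 3.96 and 4.06 CPM in WT. In RW medium Ifit3 had 3.87, 8.98 and 17.5 CPM in KO and 3.54, 7.18 and 3.39 CPM in WT. For Ifit3, the KO ERW library of batch 3 was highest and the WT ERW library of batch 1 lowest, KO stood above WT in 8 of 9 matched pairs and ERW above RW in 4 of 6, and the KO and WT values overlapped in each medium. Ifit3 passed neither test of ERW medium, with 0.52 ± 0.45 for ERW minus RW (edgeR adjusted p = 0.477) and 0.58 ± 0.46 for ERW minus EGF (edgeR adjusted p = 0.400). Of its 50-base stretches, 51.2% also occur in Ifit3b, so the split of counts between both genes is uncertain, and Ifit3b was called in neither comparison. Ifit2, a relative linked to cell death and antiviral defence, rose in EGF over RW medium by 0.34 ± 0.11 (edgeR adjusted p = 0.0316; chr19:34550694-34576419, plus strand). Ifit2 in ERW medium had 21.5, 15.9 and 22.1 CPM in the KO libraries of batches 1, 2 and 3, against 17.3, 11.9 and 16.1 CPM in the WT libraries. In EGF medium Ifit2 had 17.7, 14.7 and 23.9 CPM in KO and 13.3, 13.5 and 18.5 CPM in WT. In RW medium Ifit2 had 12.8, 12.4 and 19.9 CPM in KO and 13.4, 10.2 and 11.6 CPM in WT. For Ifit2, the KO EGF library of batch 3 was highest and the WT RW library of batch 2 lowest, KO stood above WT in 8 of 9 matched pairs and ERW above RW in 6 of 6, and the KO and WT values overlapped in each medium. Ifit2 rose by 0.38 ± 0.11 in ERW over RW medium (edgeR adjusted p = 0.0177), and ERW minus EGF was 0.04 ± 0.11 (edgeR adjusted p = 0.816).

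Mx1 and Rtp4 rose in both media with EGF over RW medium. Mx1 encodes a dynamin-like GTPase that blocks influenza virus in mice, and C57BL/6 mice carry a deletion in it (chr16:97447035-97462907, minus strand). Mx1 in ERW medium had 5.35, 34.6 and 28.7 CPM in the KO libraries of batches 1, 2 and 3, against 1.98, 18.2 and 12.8 CPM in the WT libraries. In EGF medium Mx1 had 5.23, 13.99 and 25.1 CPM in KO and 5.25, 12.3 and 7.07 CPM in WT. In RW medium Mx1 had 1.29, 10.3 and 14.5 CPM in KO and 1.21, 7.15 and 3.58 CPM in WT. For Mx1, the KO ERW library of batch 2 was highest and the WT RW library of batch 1 lowest, KO stood above WT in 8 of 9 matched pairs and ERW above RW in 6 of 6, and the KO and WT values overlapped in each medium. Mx1 rose by 1.40 ± 0.32 in ERW over RW medium (edgeR adjusted p = 0.00607), and ERW minus EGF was 0.24 ± 0.31 (edgeR adjusted p = 0.641). It rose by 1.16 ± 0.33 in EGF over RW medium (edgeR adjusted p = 0.0177), the largest of the 4 rises there. Rtp4, a receptor transporter protein raised by interferon, was the next largest in that comparison, with 0.81 ± 0.23 (edgeR adjusted p = 0.0212; chr16:23520291-23614222, plus strand). Rtp4 in ERW medium had 90.97, 83.1 and 159 CPM in the KO libraries of batches 1, 2 and 3, against 58.5, 61.1 and 87.3 CPM in the WT libraries. In EGF medium Rtp4 had 54.04, 53.9 and 154 CPM in KO and 44.2, 45.2 and 69.5 CPM in WT. In RW medium Rtp4 had 34.8, 37.8 and 83.6 CPM in KO and 38., 19.1 and 22.5 CPM in WT. For Rtp4, the KO ERW library of batch 3 was highest and the WT RW library of batch 2 lowest, KO stood above WT in 8 of 9 matched pairs and ERW above RW in 6 of 6, and the KO and WT values overlapped in each medium. Rtp4 rose by 1.22 ± 0.23 in ERW over RW medium (edgeR adjusted p = 0.00221), and ERW minus EGF was 0.41 ± 0.22 (edgeR adjusted p = 0.208). Rsad2 encodes viperin, a radical SAM enzyme that makes a chain-ending nucleotide (chr12:26442746-26456452, minus strand). Rsad2 in ERW medium had 7.496, 41.8 and 58.2 CPM in the KO libraries of batches 1, 2 and 3, against 4.09, 30.8 and 27.1 CPM in the WT libraries. In EGF medium Rsad2 had 4.201, 16.6 and 22.3 CPM in KO and 5.38, 13.3 and 7.14 CPM in WT. In RW medium Rsad2 had 6.51, 22.9 and 28.6 CPM in KO and 5.54, 17.3 and 6.71 CPM in WT. For Rsad2, the KO ERW library of batch 3 was highest and the WT ERW library of batch 1 lowest, KO stood above WT in 8 of 9 matched pairs and ERW above RW in 5 of 6, and the KO and WT values overlapped in each medium. Rsad2 rose by 1.08 ± 0.32 in ERW over EGF medium (edgeR adjusted p = 0.0263), and ERW minus RW was 0.77 ± 0.32 (edgeR adjusted p = 0.111). Its neighbour Cmpk2, a nucleotide kinase gene, rose by 0.84 ± 0.23 in ERW over RW medium.

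Bst2 had the highest level per length of the 38 genes, with a median of 51 CPM per kb of exon and a range of 25.7 to 230 CPM per kb. It encodes tetherin, which holds budding virus at the cell surface (chr8:71534255-71537456, minus strand). Bst2 in ERW medium had 48.2, 98.3 and 208 CPM in the KO libraries of batches 1, 2 and 3, against 34.04, 85.99 and 97.8 CPM in the WT libraries. In EGF medium Bst2 had 34.4, 51.8 and 129 CPM in KO and 26.2, 33.6 and 50.4 CPM in WT. In RW medium Bst2 had 27.2, 43.9 and 80.7 CPM in KO and 23.2, 25.4 and 32.7 CPM in WT. For Bst2, the KO ERW library of batch 3 was highest and the WT RW library of batch 1 lowest, KO stood above WT in 9 of 9 matched pairs and ERW above RW in 6 of 6, and the KO and WT values overlapped in each medium. Bst2 rose in ERW medium, by 1.22 ± 0.19 over RW (edgeR adjusted p = 0.000597) and by 0.81 ± 0.19 over EGF (edgeR adjusted p = 0.00728). Eif2ak2 encodes PKR, a kinase that halts translation when it binds double-stranded RNA (chr17:78852564-78882573, minus strand). Eif2ak2 in ERW medium had 64.1, 76.4 and 79.8 CPM in the KO libraries of batches 1, 2 and 3, against 42.8, 70.9 and 55.03 CPM in the WT libraries. In EGF medium Eif2ak2 had 43.9, 42.5 and 57.8 CPM in KO and 41.5, 47.01 and 42.3 CPM in WT. In RW medium Eif2ak2 had 38.97, 55.9 and 58.4 CPM in KO and 37.05, 45.7 and 34.9 CPM in WT. For Eif2ak2, the KO ERW library of batch 3 was highest and the WT RW library of batch 3 lowest, KO stood above WT in 8 of 9 matched pairs and ERW above RW in 6 of 6, and the KO and WT values overlapped in each medium. Eif2ak2 rose in ERW medium, by 0.52 ± 0.10 over RW (edgeR adjusted p = 0.000865) and by 0.48 ± 0.10 over EGF (edgeR adjusted p = 0.00163). Gbp2 and Gbp3 encode guanylate-binding GTPases that act against pathogens inside cells. Gbp2 was called in no comparison of media (chr3:142620602-142638008, plus strand). Gbp2 in ERW medium had 29.5, 65.3 and 78.5 CPM in the KO libraries of batches 1, 2 and 3, against 26.7, 49.1 and 50.8 CPM in the WT libraries. In EGF medium Gbp2 had 32.9, 36.5 and 77.9 CPM in KO and 35.7, 39.04 and 45.4 CPM in WT. In RW medium Gbp2 had 35.3, 45.7 and 60.7 CPM in KO and 33.9, 34.6 and 31.3 CPM in WT. For Gbp2, the KO ERW library of batch 3 was highest and the WT ERW library of batch 1 lowest, KO stood above WT in 7 of 9 matched pairs and ERW above RW in 4 of 6, and all KO values lay above all WT values in RW medium and the groups overlapped in the other media. Gbp2 passed neither test of ERW medium, with 0.25 ± 0.18 for ERW minus RW (edgeR adjusted p = 0.373) and 0.13 ± 0.18 for ERW minus EGF (edgeR adjusted p = 0.661). Gbp3 was among the 5 largest rises (chr3:142560026-142573209, plus strand). Gbp3 in ERW medium had 27.98, 52.96 and 97.5 CPM in the KO libraries of batches 1, 2 and 3, against 12.96, 32.7 and 45.96 CPM in the WT libraries. In EGF medium Gbp3 had 15.5, 18.3 and 66.9 CPM in KO and 12.1, 14. and 19.1 CPM in WT. In RW medium Gbp3 had 7.28, 19.4 and 36.1 CPM in KO and 7.25, 8.804 and 8.896 CPM in WT. For Gbp3, the KO ERW library of batch 3 was highest and the WT RW library of batch 1 lowest, KO stood above WT in 9 of 9 matched pairs and ERW above RW in 6 of 6, and the KO and WT values overlapped in each medium. Gbp3 rose in ERW medium, by 1.62 ± 0.26 over RW (edgeR adjusted p = 0.000558) and by 0.89 ± 0.25 over EGF (edgeR adjusted p = 0.0191).

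**Figure D3:**
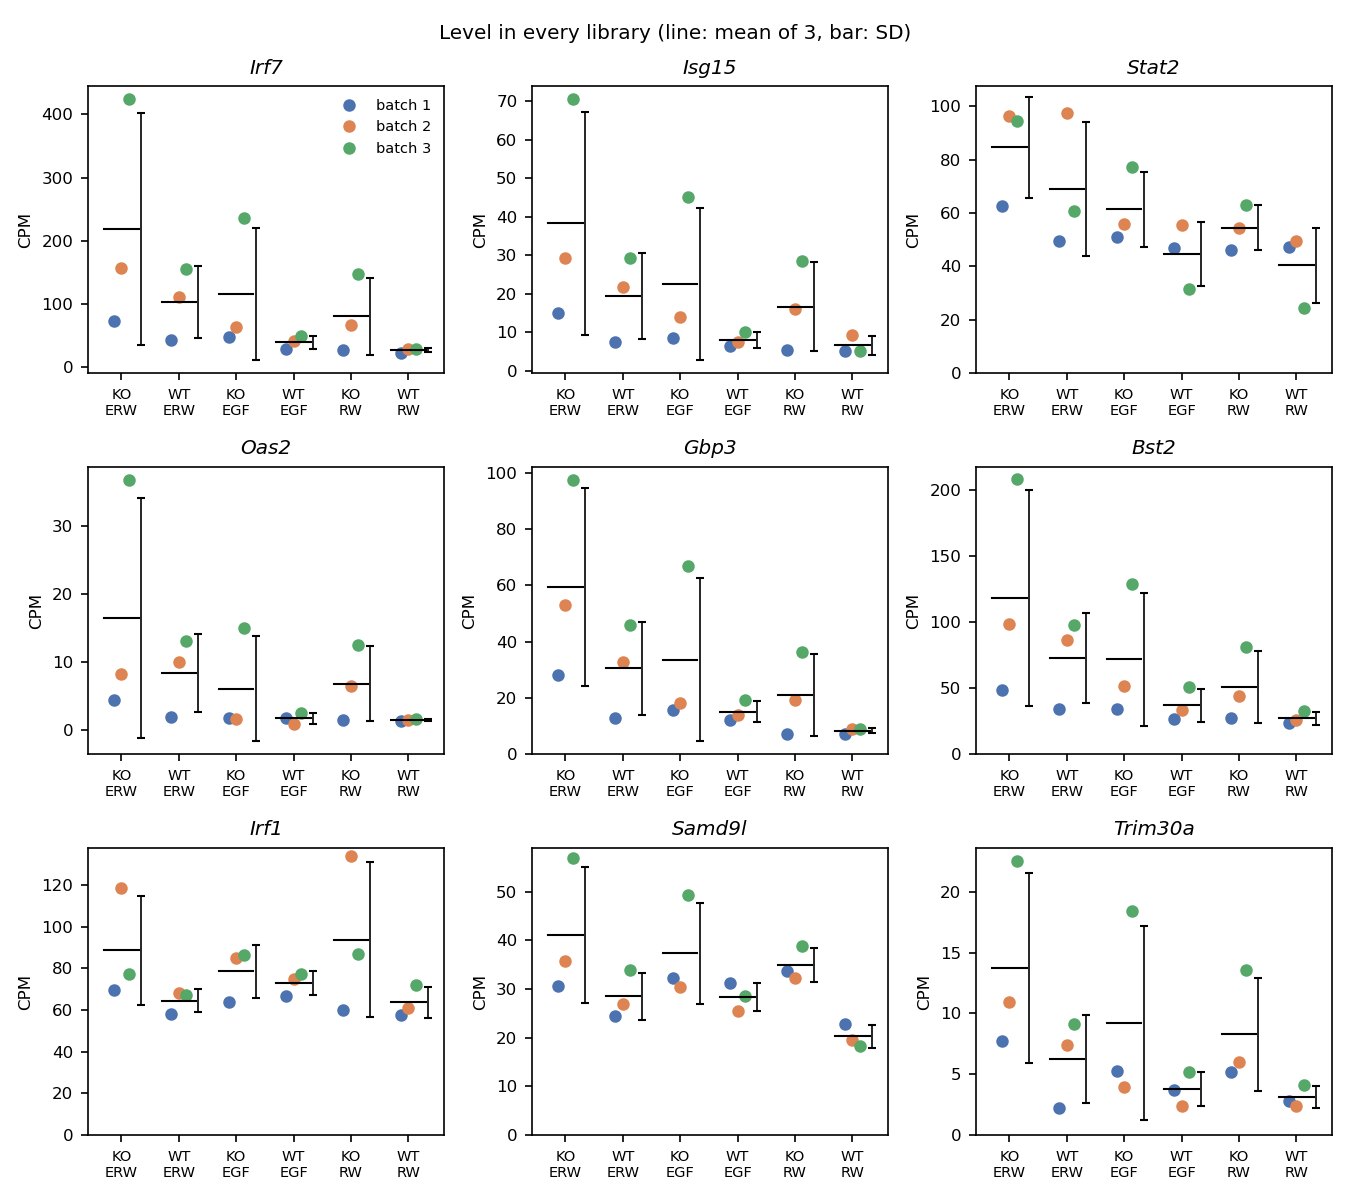
CPM of Irf7, Isg15, Stat2, Oas2, Gbp3, Bst2, Irf1, Samd9l and Trim30a in each group, with 1 point per library coloured by batch and bars for the mean and SD of 3 libraries. Among these 9 genes, batch 3 is highest in every KO group except for Irf1 in ERW and RW medium and Stat2 in ERW medium.

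Between genotypes the 38 genes had higher fitted levels in KO, but few passed the test. KO minus WT was positive for all 38 genes over the average of the media, with a median log2 difference of 0.69, against 0.00 over all genes tested. Only Trim30a and Samd9l were called in that comparison, where 0.339% of all genes were called and 0.228% rose, and 33 of the 38 had an unadjusted p under 0.05, against 10.8% of all genes. Trim30a restrains Toll-like receptor signalling in mouse macrophages (chr7:104409025-104465193, minus strand). Trim30a in ERW medium had 7.75, 10.9 and 22.6 CPM in the KO libraries of batches 1, 2 and 3, against 2.203, 7.37 and 9.17 CPM in the WT libraries. In EGF medium Trim30a had 5.27, 3.95 and 18.4 CPM in KO and 3.71, 2.42 and 5.17 CPM in WT. In RW medium Trim30a had 5.22, 6.01 and 13.6 CPM in KO and 2.82, 2.38 and 4.15 CPM in WT. For Trim30a, the KO ERW library of batch 3 was highest and the WT ERW library of batch 1 lowest, KO stood above WT in 9 of 9 matched pairs and ERW above RW in 5 of 6, and all KO values lay above all WT values in RW medium and the groups overlapped in the other media. Trim30a rose by 0.83 ± 0.25 in ERW over RW medium (edgeR adjusted p = 0.0251), and ERW minus EGF was 0.67 ± 0.25 (edgeR adjusted p = 0.0573). Trim30a rose in KO by 1.16 ± 0.21 over the media (edgeR adjusted p = 0.0153). Samd9l encodes an antiviral protein that also restrains cell growth (chr6:3372257-3399572, minus strand). Samd9l in ERW medium had 30.6, 35.7 and 57.04 CPM in the KO libraries of batches 1, 2 and 3, against 24.6, 27.01 and 33.9 CPM in the WT libraries. In EGF medium Samd9l had 32.2, 30.5 and 49.4 CPM in KO and 31.2, 25.5 and 28.5 CPM in WT. In RW medium Samd9l had 33.7, 32.3 and 38.9 CPM in KO and 22.9, 19.5 and 18.3 CPM in WT. For Samd9l, the KO ERW library of batch 3 was highest and the WT RW library of batch 3 lowest, KO stood above WT in 9 of 9 matched pairs and ERW above RW in 5 of 6, and all KO values lay above all WT values in RW medium and the groups overlapped in the other media. Samd9l passed neither test of ERW medium, with 0.34 ± 0.12 for ERW minus RW (edgeR adjusted p = 0.0522) and 0.06 ± 0.12 for ERW minus EGF (edgeR adjusted p = 0.759). Samd9l rose in KO by 0.55 ± 0.10 over the media (edgeR adjusted p = 0.0147). The fit treats the 3 media of a genotype and batch as separate libraries, and these may have shared mice. Its p-values, adjusted or not, thus do not measure the spread of KO minus WT over mice. Both calls were lost without batch in the model or without batch 3. Over the libraries left out one at a time, the count of calls lay between 0, without the WT EGF library of batch 2, and 6, without the WT RW library of batch 1. It was 4 without the KO RW library of batch 1 or the KO EGF library of batch 2. It was 1 without the WT RW library of batch 2, the KO ERW library of batch 2, or the WT library of batch 3 in ERW, EGF or RW medium. DESeq2 called 18 of the 38 in the same model, all higher in KO. The share of all genes that DESeq2 called is not given here, so its count is not set against that of edgeR.

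Within single media the test called none of the 38 genes. The count was 0 in ERW medium, where 0.0819% of all genes were called, 0.0585% higher and 0.0234% lower, by edgeR. It was 0 in EGF medium, where 0.0702% were called, 0.0527% higher and 0.0176% lower. It was 0 in RW medium, where 0.0819% were called, 0.0644% higher and 0.0176% lower. Unadjusted p-values under 0.05 were found for 17 of the 38 in ERW, 13 in EGF and 19 in RW medium, against 4.14%, 3.26% and 5.20% of all genes. DESeq2 called 0 in ERW, 0 in EGF and 1 in RW medium. The medians of KO minus WT were 0.67 in ERW, 0.62 in EGF and 0.69 in RW medium, and positive values numbered 38, 38 and 37.

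The difference between KO and WT was not of 1 size across batches. In batch 3 the median gene stood 2.88-fold higher in KO than in WT, averaged over media on the log2 scale, against 1.16-fold in batch 1 and 1.26-fold in batch 2. Batch 3 held the largest KO minus WT for 37 of the 38 genes, against 32.7% of all genes tested. The split by batch was chosen with this variation already known, so the share over all genes is a description and not a test. KO stood above WT in all 3 batches for 31 of the 38, against 12.8% of all genes, and in 2 batches for the other 7. By medium, the medians in batch 1 were 0.67 in ERW, 0.11 in EGF and -0.01 in RW medium. The medians in batch 2 were 0.36, 0.16 and 0.48 in the same order of media, and those in batch 3 were 1.05, 1.67 and 1.78. In batch 1 the genes went both ways in 2 media: 25 of the 38 were positive in EGF medium, between -0.38 for Ifit3b and 0.90 for Cmpk2, and 19 in RW medium, between -1.45 for Oas1a and 0.87 for Trim30a. In batch 3 the difference was positive in each medium for every gene.

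**Figure D4:**
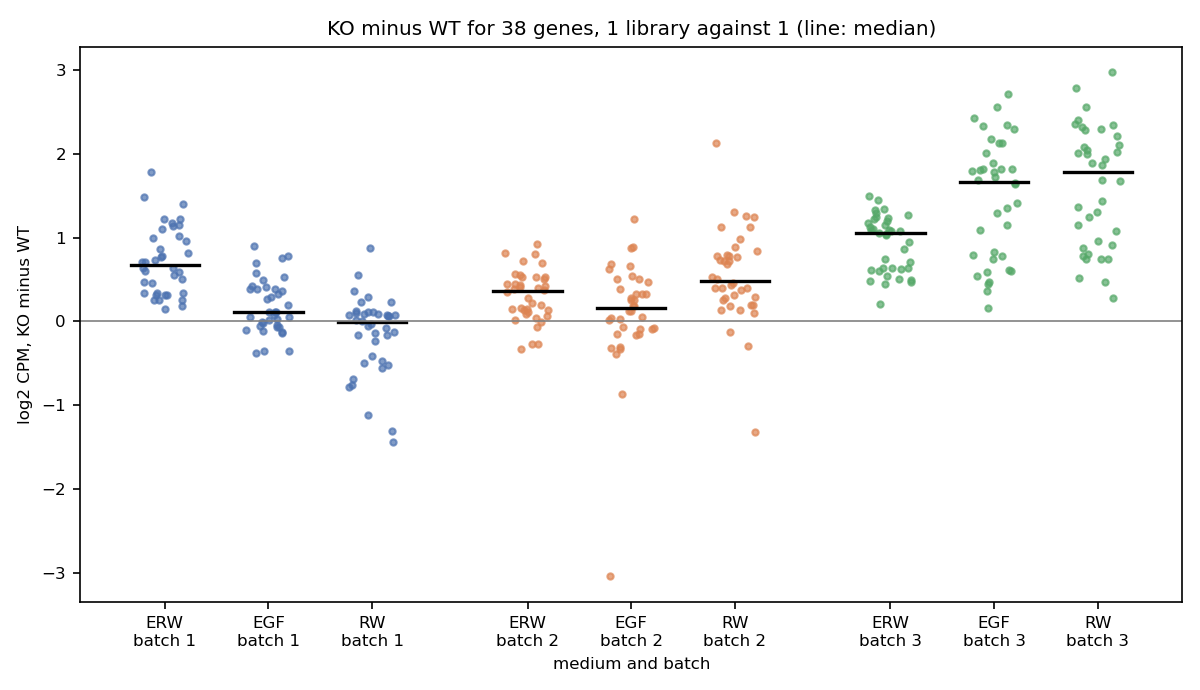
Difference in log2 CPM between 1 KO and 1 WT library for each of the 38 genes (points), by medium and batch, with the median as a line. The batch 3 medians are 1.05 in ERW, 1.67 in EGF and 1.78 in RW medium, and no batch 3 point lies below 0.

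A test of whether KO minus WT differs between batches called 6 of the 38 genes, where 2.55% of all genes were called, and 29 had an unadjusted p under 0.05, against 15.4% of all genes. The test was prompted by earlier results of these data. With 1 library per genotype, medium and batch, the 3 media of a genotype and batch stood as its replicates and may have shared mice. Its p-values thus do not measure the spread of KO minus WT over mice within a batch. The sensor genes Ifih1, Ddx58 and Zbp1 were among the 6 genes called. Ifih1 had KO minus WT of 0.13 ± 0.12, 0.06 ± 0.17 and 0.70 ± 0.10 in batches 1, 2 and 3 (mean ± SD over 3 media, log2 CPM; edgeR adjusted p = 0.0176). Ddx58 had 0.13 ± 0.12, 0.14 ± 0.08 and 0.60 ± 0.13 (edgeR adjusted p = 0.0492). Zbp1 had 0.09 ± 0.40, 0.63 ± 0.22 and 1.57 ± 0.42 (edgeR adjusted p = 0.0456). All 3 had their largest difference in batch 3. Dtx3l, whose ligase works with the ADP-ribosyltransferase Parp9, had 0.13 ± 0.20, -0.19 ± 0.20 and 0.47 ± 0.001 (edgeR adjusted p = 0.0375). Xaf1, which binds an inhibitor of apoptosis, had 0.07 ± 0.53, 0.07 ± 0.34 and 1.61 ± 0.46 (edgeR adjusted p = 0.0386). Ifi35, which forms a complex with Nmi, had 0.03 ± 0.26, 0.13 ± 0.25 and 0.70 ± 0.08 (edgeR adjusted p = 0.0370). These genes too differed most in batch 3. The count moved with single libraries, between 0 without the KO EGF or the WT RW library of batch 3 and 19 without the WT ERW library of batch 1. It was 13 without the WT ERW library of batch 3, 4 without the WT RW library of batch 1, and 1 to 3 without any of the other libraries, and DESeq2 called 21. The share of all genes that DESeq2 called is not given here. Ifih1 was called in 18 of 21 other settings and the other 5 genes in 4 to 10.

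Levels also differed between batches as a whole. A test of the batch terms called 35 of the 38 genes, where 53.4% of all genes were called. The medium-by-batch test of edgeR called 0 of the 38, where 0.123% of all genes were called, with 0 under an unadjusted p of 0.05 and 0 called by DESeq2. Batch accounted for a median of 33% of the variance of log2 CPM of a gene among the 38, against 30.4% over all genes. Medium accounted for 28.9% against 20.8%, genotype for 15.7% against 2.05%, and genotype by batch for 9.56% against 5.34%. Genotype by medium accounted for 0.523% against 2.50%.

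The summed level of the 38 genes shows both patterns at once. It was 1467, 1971 and 3425 CPM in KO and 1046, 1575 and 1848 CPM in WT in ERW medium, in batches 1, 2 and 3. In EGF medium the sums were 1078, 1109 and 2443 CPM in KO and 974, 1019 and 1127 CPM in WT. In RW medium they were 925, 1217 and 1896 CPM in KO and 909, 869.6 and 838 CPM in WT. The sums of the WT libraries in RW medium lay between 838 and 909 CPM, while single genes such as Mx1 and Rsad2 varied more there, and the sum of the KO libraries in RW medium was highest in batch 3. Ddx58 had the highest mean CPM of the 38 genes over the libraries, but not the highest value in each of them. In the KO ERW library of batch 3, Irf7 had 424 CPM and Ddx58 188 CPM. The KO ERW library of batch 3 held the highest value of 34 of the 38 genes, against 9.73% of all genes tested.

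Interferon-stimulated genes outside the 38 moved in part with them. Of 44 further genes of the response, which again include Trim25, 21 rose and 2 fell in ERW against RW medium. Over all genes tested, 11% rose and 11.9% fell there. Apol9b, an apolipoprotein L gene, rose by 1.55 ± 0.42 (edgeR adjusted p = 0.0140). Igtp, Irgm1 and Slfn2 rose by 1.10 ± 0.19, 0.95 ± 0.21 and 0.95 ± 0.18, where the first pair are GTPase genes known for their rise after interferon gamma. Isg20, an exonuclease gene, rose by 0.89 ± 0.19. Gbp4 and Slfn5 fell, with log2 differences of -1.53 ± 0.48 and -0.72 ± 0.16. Of 12 genes of antigen presentation by MHC class I, 7 rose and 0 fell, led by H2-T23 with 0.50 ± 0.07 and H2-K1 with 0.44 ± 0.10. In KO over WT, averaged over the media, H2-D1 rose by 0.42 ± 0.07 (edgeR adjusted p = 0.0147), Helz2 by 0.50 ± 0.10 (edgeR adjusted p = 0.0418) and Ifi27 by 0.37 ± 0.06 (edgeR adjusted p = 0.00831). That test called 0.339% of all genes, 0.228% higher. In ERW, EGF and RW medium H2-D1 had 578, 598 and 501 CPM in KO and 455, 478 and 463 CPM in WT of batch 1. In batch 2 it had 785, 649 and 639 CPM in KO and 660, 543 and 423 CPM in WT. In batch 3 it had 1118, 1100 and 820 CPM in KO and 769, 699 and 507 CPM in WT. Whether the calls of H2-D1, Helz2 and Ifi27 hold without single libraries or batches was not tested. None of the other genes on either list was called in KO over WT.

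Markers of other cell types moved with medium too, in the opposite direction. In ERW against RW medium all 6 adipocyte genes, all 6 endothelial genes and 6 of 7 fibroblast genes fell, as did 6 of 11 myeloid genes, while 1 myeloid gene, Cd14, rose. Over all genes tested, 11.9% fell and 11% rose there. Cd14 had 189 to 887 CPM and the other myeloid markers far less, so Cd14 was left out of the sum after its level was seen. The other myeloid markers summed to between 10.3 and 25.5 CPM in KO and 9.15 and 29.8 CPM in WT in ERW medium. In EGF medium they summed to between 19.9 and 67.1 CPM in KO and 19.5 and 163 CPM in WT, and in RW medium to between 25.95 and 49 CPM in KO and 37.5 and 75.8 CPM in WT. Endothelial markers summed to between 134 and 191 CPM in KO and 73.2 and 169 CPM in WT in ERW medium, and to between 237 and 559 CPM in KO and 241 and 363 CPM in WT in RW medium. Siglech, which defines plasmacytoid dendritic cells, a strong source of type I interferon, had 0 counts in every library, and Ms4a1 and Ncr1 of the lymphocyte list likewise. Bst2, itself among the 38 genes, is also on the list of plasmacytoid dendritic cells and is left out of the following counts. Of the other 38 markers tested, edgeR called 0 in KO against WT over the media, with 2 under an unadjusted p of 0.05, and 0 in the genotype-by-batch test, with 7 under 0.05. Over all genes, 0.339% and 2.55% were called in these tests, and 10.8% and 15.4% had an unadjusted p under 0.05. In each single medium edgeR called 0 of these markers as well. There 0 were under 0.05 in ERW, 3 in EGF and 0 in RW medium, against 4.14%, 3.26% and 5.20% of all genes. The part of cell makeup in the differences between media was not tested.

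**Figure D5:**
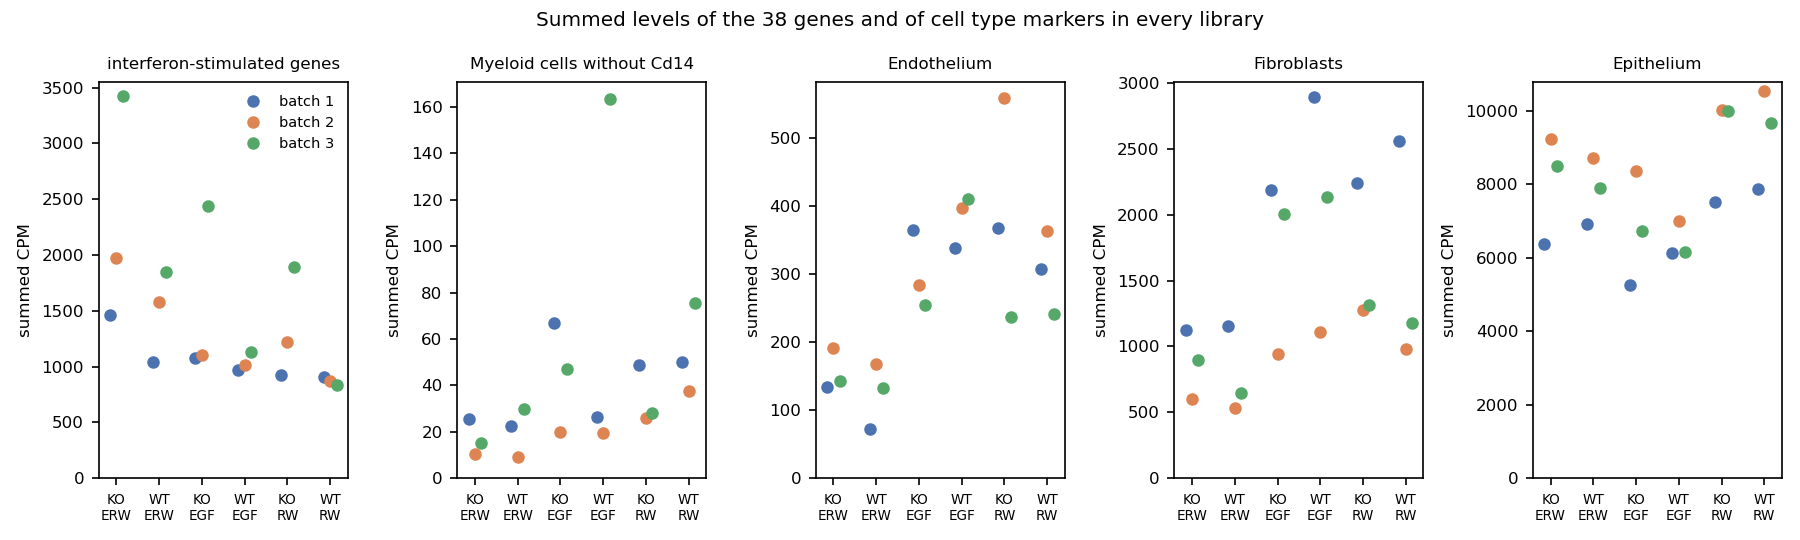
Summed CPM of the 38 genes and of 4 marker lists in each library, by group, coloured by batch. The sum of the 38 genes is highest in the KO ERW library of batch 3, at 3425 CPM, while endothelial markers are lowest in ERW medium.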

How the data were processed

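The authors deposited whole-number read counts per Ensembl gene for 18 libraries. The submitters' processing notes name STAR, DESeq2 and GRCm38; the sources used here give no versions, annotation, counting tool or strand setting. Per the labels' protocols, libraries were made from 100 ng of RNA with a NuGEN kit and sequenced as single reads of 50 bases. Gene symbols and positions came from the authors' second deposited table, whose normalized signal (counts divided by 1 size factor per library) was not tested; its headers name a batch term.

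Counts were scaled by TMM and filtered with filterByExpr (minimum count 10, minimum total 15) in edgeR 4.0.16 under R 4.3.3. All 18 libraries entered 1 robust quasi-likelihood fit with 1 mean per group and the batch as a block, and 11 two-sided tests were each adjusted by Benjamini-Hochberg over 17092 genes. Genotype-by-batch and medium-by-batch terms were added for those tests. Differences within a batch used log2 CPM with a prior count of 2. Scripts were tested on simulated data. The batch number pairs the libraries: deviations from the group means correlated with r of 0.175 to 0.453 between libraries of the same batch and -0.285 to -0.00488 between libraries of different batches and different groups. These ranges are not independent, since deviations from a group mean cancel within the group. P-values measure the spread between libraries, which the labels call biological replicates. For KO over WT averaged over media they do not measure the spread over mice, since the media of a genotype and batch may have shared mice. Sequence shared with other genes was counted as 50-base stretches of GENCODE vM21 transcripts.

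The members, gene lists, tests and naming rule were chosen with earlier results of these data known. The rule gives every library's value for 16 members set by name and, in each comparison, for the called members with the 5 largest rises and falls. Alternatives were no replicate block, RLE size factors, no filter on low counts, DESeq2 1.42.0, and each library or batch left out.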

Additional observations from a re-analysis of the deposited data

Results flagged for a closer look

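For 6 of the 38 genes, KO minus WT differed between batches by a test of the difference itself, which called 2.55% of all genes. The test was prompted by earlier results of these data, in which the genotype difference varied between batches. That test took the 3 media of a genotype and batch as its replicates, and these may have shared mice. The adjusted p of edgeR was 0.0176 for Ifih1, 0.0370 for Ifi35, 0.0375 for Dtx3l, 0.0386 for Xaf1, 0.0456 for Zbp1 and 0.0492 for Ddx58. Over 21 other settings the adjusted p lay between 0.00114 and 0.0755 for Ifih1 and between 0.00318 and 0.140 for Ifi35. It lay between 0.00595 and 0.124 for Dtx3l, 0.000212 and 0.127 for Xaf1, 0.000939 and 0.122 for Zbp1, and 0.00478 and 0.181 for Ddx58. For each of these genes KO minus WT was largest in batch 3. In ERW, EGF and RW medium Rasgrp1 had 0, 0 and 0 counts in the KO libraries of batch 1, 0, 6 and 0 in those of batch 2, and 6, 4 and 9 in those of batch 3. The part of batch 3 mice, cultures or RNA in the difference was not tested.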

How the results depend on the processing

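None of the 54 called differences between media or genotypes among the 38 genes changed sign under any setting tried, and 6 stayed called under every one. Without the replicate block, calls among the 38 genes went to 0 for EGF over RW medium (4 as reported), 12 for ERW over RW (28), 1 for ERW over EGF (20) and 0 for KO over WT across media (2). The block was part of the reported fit. Without the filter on low counts, 2 were called for EGF over RW and 11 for ERW over EGF, and genotype-by-batch calls numbered 6, of which 4 were among the 6 reported. DESeq2 called 18 for KO over WT across media, 1 in RW medium and 21 for genotype by batch. For the counts in this section, the share of all genes called under each setting is not given. RLE size factors kept every call. With 1 library left out, counts ranged from 0 to 10 for EGF over RW, 21 to 31 for ERW over RW, 9 to 25 for ERW over EGF, 0 to 6 for KO over WT across media, 0 to 19 for genotype by batch and 28 to 35 for batch. With 1 batch left out they ranged from 0 to 3, 8 to 23, 2 to 17 and, for KO over WT across media, 0 to 5, and from 0 to 1 in RW medium. The cause was not tested, apart from the fewer libraries. Counting each of the 54 differences under each setting, 160 values stayed called and 56 did not under the settings other than leaving out samples, 828 and 144 with 1 library left out, and 89 and 73 with 1 batch left out. With 3 libraries a group the depth of low genes such as Oas3 and Ifit3b limits their precision.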
